A study of Mus musculus with 8 samples.

Results

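The scar that TIGAR knockout (TKO) hearts formed after myocardial infarction (MI) was compared with TKO left ventricle, gene by gene. Each side was 1 RNA-seq library, and of the 16994 genes in the table, 12999 averaged 1 CPM (counts scaled by library size) or more over the 8 libraries of the series and were taken as the members of the comparison. The mice lacked *Tigar*, a regulator of glycolysis and apoptosis, in the whole body. The study's floxed *Tigar* line came from C57BL/6N mice with the tm1a(EUCOMM)Wtsi allele, and for the TKO line it refers to earlier work. For the TKO infarct zone, the left anterior descending coronary artery was ligated at 16 weeks of age and RNA from 3 mice was pooled. The study states that it used male mice only. Its echocardiograms ran to 4 weeks after ligation, and the time from ligation to the sampling of this tissue is not stated. The TKO left ventricle library is labelled only by tissue and genotype, and neither its surgery nor the number of mice in it is named. The border and remote zones of the TKO hearts after ligation, and the same 4 regions of wild-type (WT) hearts, made up the other 6 libraries. All TKO groups carried the same disruption of *Tigar*, so the comparison of infarct zone with left ventricle addresses what the scar contains and not what the knockout does.

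A ventricular scar forms when dead muscle is replaced by extracellular matrix. Resident fibroblasts turn into matrix-producing myofibroblasts and later into matrifibrocytes, which carry genes of cartilage and tendon, while macrophages and other leukocytes clear debris. The surviving muscle around the scar depends on mitochondrial oxidation of fatty acids, and stressed heart muscle switches on natriuretic peptides and the fetal myosin heavy chain. TIGAR is a phosphatase that lowers fructose-2,6-bisphosphate and so holds back glycolysis.

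Of the 12999 genes, 2112 (16.2%) were at least 2-fold higher and 991 (7.62%) were at least 2-fold lower in the TKO infarct zone than in the TKO left ventricle. Each count of list members below is to be read beside these shares. At a limit of 4-fold, 785 genes were higher and 86 lower, so the large differences lay almost entirely on the side of gain. Ratios were taken between counts scaled by the TMM method of edgeR over all 8 libraries, with a prior count of 2 where genes were counted, and the median of all genes was 1.01 with quartiles of 0.723 and 1.54. With 1 library a side no p-value can be given, the spread between mice is not measured, and the intervals printed are exact 95% Clopper-Pearson intervals that cover counting error only. Since the tissue was bulk, fewer cells of a type and less RNA per cell cannot be told apart. The scaling matters here: with total counts alone the median of all genes moved to 1.46, a shift of 0.55 on the log2 scale, and 3879 genes were then higher and 207 lower, so 94.9% of the differing genes were higher instead of 68.1%. All ratios below are relative to a median near 1.

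**Figure D1:**
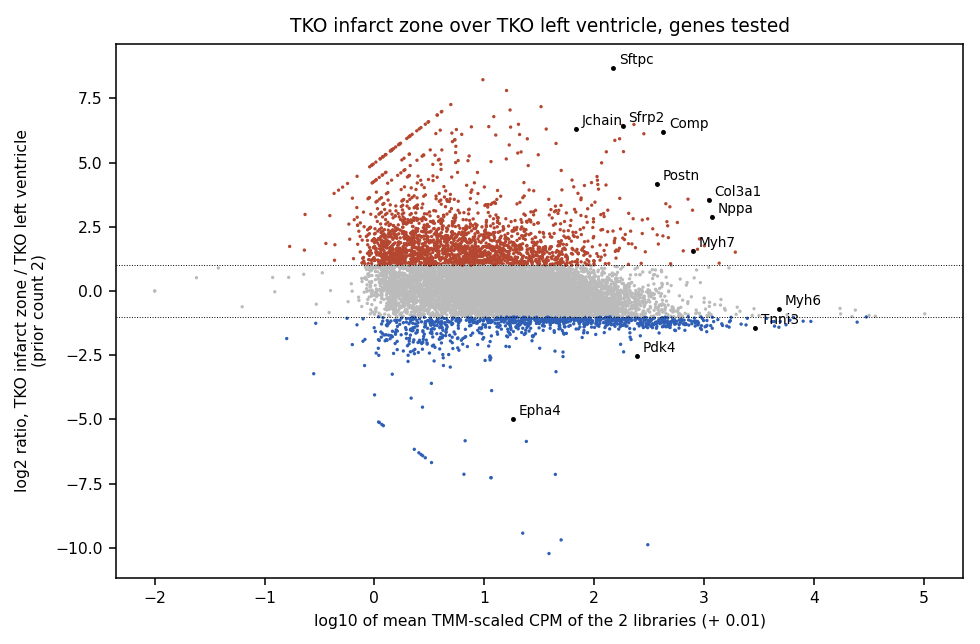
Each point is 1 of the genes tested; the x axis is the log10 of its mean TMM-scaled CPM in the TKO infarct zone and the TKO left ventricle, and the y axis is the log2 ratio between them. Red points are at least 2-fold higher (2112 genes), blue points at least 2-fold lower (991 genes), the dotted lines mark the 2-fold limits, and straight rows of points at the left are genes without counts in 1 library.

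Several facts about the libraries stand before the gene groups. The 8 libraries held 27429240 to 33799249 counts, and 3 counts, the floor used here, corresponded to 0.116 CPM in the TKO left ventricle and 0.0839 CPM in the TKO infarct zone. *Tigar* had 51 counts in the TKO left ventricle and 87 in the TKO infarct zone, against 1066 to 2215 in the 4 WT libraries, so both libraries matched their genotype. Genes that mark lung epithelium led the TKO infarct zone. *Sftpc*, surfactant protein C of alveolar type II cells, had 17 counts in the TKO left ventricle and 10576 in the TKO infarct zone, a ratio of 451 (281 to 774). *Scgb1a1*, the club cell secretoglobin, went from 5 to 1220 counts, and *Cldn18*, a claudin of the alveolar epithelium, from 0 to 290, at least 70.0-fold. Of 20 lung epithelium markers, listed after these genes were seen, 17 were tested and 16 were at least 2-fold higher; 7 were at or under the floor in the TKO left ventricle and none in the TKO infarct zone. Their summed level was 650 CPM in the TKO infarct zone, 295 in the WT infarct zone, and 45.2 to 92.1 in the other 6 libraries. The part of lung tissue in the other differences was not tested.

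The TKO left ventricle library stood apart in other genes. *Per2*, a repressor of the circadian clock, had 164 counts there and 846 to 1785 in the other 7 libraries, and *Arntl*, the activator of the clock, had 254 there and 23 to 140 elsewhere. The labels give no time of day. *Itpr1*, *Rps7*, and *Slc38a6* likewise had counts in the TKO left ventricle outside the range of the other 7 libraries. Beside a named gene the ratio over the TKO remote zone, a reference chosen after the values were seen, is given for some genes and lists, and the absence of that value does not mean that it was the same: 219 ratios of named genes moved beyond their counting interval with that reference. Against that reference 1701 genes were at least 2-fold higher and 535 at least 2-fold lower.

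The median of every matrix list lay above 1, from 1.78 for Wnt genes to 11.2 for fibrillar collagens. The fibrillar collagens, which bear the tension of a scar, had a median ratio of 11.2, with 6 of 8 at least 2-fold higher and none lower, where 16.2% of all genes were higher. *Col3a1*, the type III collagen chain, had 4474 counts in the TKO left ventricle and 72654 in the TKO infarct zone, a ratio of 11.8 (11.4 to 12.1). *Col1a2* and *Col1a1*, the chains of type I collagen, had ratios of 11.9 (11.5 to 12.4) and 10.6 (10.1 to 11.1). The ratios of these abundant chains lay close together. *Col11a1*, a nucleator of fibrils in cartilage, had 16 and 597 counts and the highest ratio of the list, 27.0 (16.5 to 47.6). *Col5a3* was the lower of the 2 members below 1, with 886 and 1061 counts and a ratio of 0.868 (0.793 to 0.950) that became 1.96 over the remote zone. Of 25 other collagens, 17 were higher and none lower. *Col12a1*, a collagen that decorates fibrils in tendon, went from 41 to 3162 counts, at a ratio of 55.9 (41.1 to 78.0) that was 15.8 over the remote zone, and *Col14a1*, its relative, reached 18.8 (16.5 to 21.4). The basement membrane chains *Col4a1* and *Col4a2*, which are the most abundant of that list, had ratios of only 1.19 and 1.21.

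Enzymes that finish collagen differed widely among themselves. Of 25 processing and crosslinking genes, 15 were at least 2-fold higher and none lower, with a median of 2.82. *Lox*, lysyl oxidase, which crosslinks collagen and elastin, had 95 and 3455 counts, a ratio of 26.3 (21.5 to 32.7). *P4ha3*, a prolyl hydroxylase subunit with low counts, went from 6 to 280, a ratio of 33.8 (15.3 to 92.9). Its paralog *P4ha2* had a ratio of 0.810 (0.752 to 0.873), and *Plod1*, a lysyl hydroxylase, 1.02 (0.967 to 1.08). *Serpinh1*, the collagen chaperone, had 3236 and 6895 counts and a ratio of 1.54 (1.48 to 1.61). These ratios of the chaperone and of most hydroxylases, such as *Plod2* at 2.02 and *P4ha1* at 1.26, lay below that of *Lox*.

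Genes of cartilage, tendon, and bone matrix, which mark the late fibroblast state of scars, had a median of 10.1, with 17 of 19 higher and none lower. *Comp*, cartilage oligomeric matrix protein, had 293 counts in the TKO left ventricle, 30128 in the TKO infarct zone, with 2035 (border) and 734 (remote) in the zones around it. The infarct ratio was 74.5 (66.4 to 83.9), and over the remote zone it was 34.6. *Angptl7*, a secreted angiopoietin-like protein of fibrous tissue, had 130 and 16293 counts, at a ratio of 90.8 (76.4 to 109), and 20.1 over the remote zone. *Cilp*, the cartilage intermediate layer protein, had 216 and 12934 counts, and *Fmod*, fibromodulin, 151 and 9026, with ratios of 43.4 (37.9 to 49.9) and 43.3 (36.9 to 51.2), each 13.6 over the remote zone. *Acan*, aggrecan, had 0 and 157 counts, at least 37.9-fold higher. *Scx*, the tendon transcription factor, had a ratio of 1.04, and *Col11a2* 0.959. All 11 small leucine-rich proteoglycans tested, which set fibril diameter, were higher. Among them *Bgn*, biglycan, had a ratio of 8.86 (8.59 to 9.15) and *Dcn*, decorin, 3.40 (3.33 to 3.47).

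Matricellular proteins, which signal to cells from the matrix, had a median of 6.46, with 18 of 23 higher and 1 lower. *Postn*, periostin, had 1009 and 25086 counts, at a ratio of 18.0 (16.9 to 19.2), and 9.73 over the remote zone. *Ccn2*, connective tissue growth factor, had 3174 and 28477, and its interval lay between 6.27 and 6.74. *Cthrc1*, a marker of activated scar fibroblasts, went from 7 to 403 counts, a ratio of 41.7 (20.1 to 104). *Fn1*, fibronectin, went the other way with 1388 and 1227 counts, at a ratio of 0.640 (0.593 to 0.692), and *Tnxb*, tenascin-X, was the member past the limit at 0.449 (0.356 to 0.565), although it was 1.07 over the remote zone. Of 17 elastic fibre and microfibril genes, 14 were higher and 1 lower (median 3.10). *Ltbp2*, a microfibril protein, had 133 and 10858 counts, a ratio of 59.1 (49.9 to 70.7), while *Emilin2* had 106 and 37, a ratio of 0.253 (0.169 to 0.371). Matrix proteases and their inhibitors had a median of 2.49, with 14 of 24 higher and 1, *Mmp15*, lower.

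Signals that act on the matrix were unequal. Of 21 TGF-beta family genes, 15 were higher and none lower, with a median of 2.79. *Tgfb3* had 322 and 2732 counts, a ratio of 6.15 (5.47 to 6.92), *Tgfb2* had 2.38 (2.08 to 2.71), and *Tgfb1* 1.20 (1.09 to 1.31). The order of the 3 ligands was separated by more than counting error. *Grem1*, a BMP antagonist, went from 7 to 132 counts, a ratio of 13.7 (6.45 to 34.6). Among 15 Wnt genes, 7 were higher and 2 lower (median 1.78), and the secreted inhibitors led. *Sfrp2* had 105 and 12823 counts, a ratio of 88.5 (73.0 to 108), which was 39.4 over the remote zone. *Dkk3*, *Frzb*, and *Sfrp1* had ratios of 15.7 (14.1 to 17.6), 15.5 (13.2 to 18.3), and 11.8 (10.5 to 13.3), and *Dkk3* had 4.55 over the remote zone. *Wif1*, another inhibitor, had 204 and 134 counts, at a ratio of 0.476 (0.380 to 0.595), and the ligands *Wnt5a* and *Wnt5b* had 1.29 and 0.901.

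**Figure D2:**
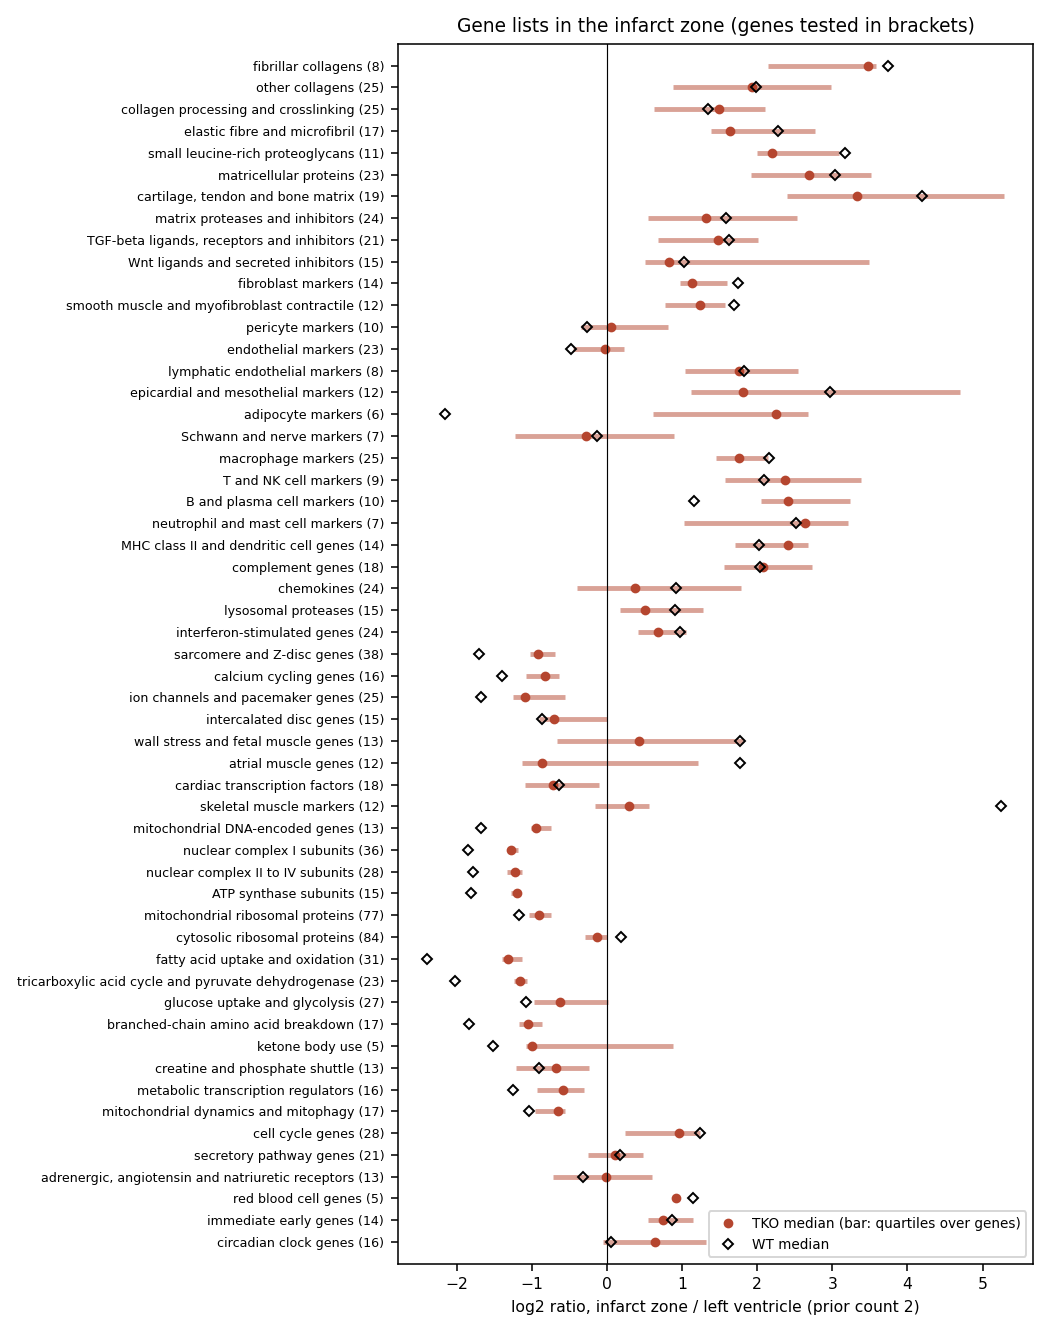
Median log2 ratio of infarct zone over left ventricle for the gene lists, with the number of genes tested in brackets; red points are TKO medians, red bars the quartiles over genes, and open diamonds the WT medians. Matrix and immune lists lie to the right (fibrillar collagens 11.2-fold in TKO), and the energy lists to the left (fatty acid uptake and oxidation 0.400 in TKO).

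Stromal and vascular markers differed by cell type, beside 16.2% higher and 7.62% lower among all genes. Of 14 fibroblast markers, 10 were higher and none lower, with a median of 2.18. *Pdgfrl* had the highest ratio, 12.7 (10.2 to 15.9), and *Gsn*, gelsolin, the most counts, with 25920 and 102100 and a ratio of 2.85 (2.82 to 2.89). *Scara5*, a marker of adventitial fibroblasts, had 0.788 (0.712 to 0.872). The contractile genes of smooth muscle and myofibroblasts had a median of 2.36, with 8 of 12 higher, and *Acta2*, smooth muscle actin, had 1783 and 6507 counts, a ratio of 2.64 (2.51 to 2.79). This is less than the ratio of any of the 3 main fibrillar collagen chains. Pericyte markers had a median of 1.04, with 2 of 10 higher and 1 lower, and the most abundant, *Rgs5*, had a ratio of 0.762 (0.744 to 0.780). Endothelial markers had a median of 0.986, with 2 of 23 higher and none lower. *Pecam1* had 3927 and 5343 counts, at a ratio of 0.986 (0.946 to 1.03), and *Cdh5*, VE-cadherin, 0.862 (0.827 to 0.898). The 2 members past the limit were *Vcam1*, an adhesion molecule for leukocytes, at 4.75 (4.27 to 5.30), and *Vwf*, von Willebrand factor of large vessels, at 2.33. *Kdr*, the VEGF receptor, was lowest at 0.553 (0.531 to 0.577). With total counts in place of TMM, the medians of both lists lay above 1.

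Lymphatic endothelial markers had a median of 3.38, with 6 of 8 higher and 1 lower. *Mmrn1* had 51 and 938 counts, a ratio of 13.3, which was 4.22 over the remote zone, and *Ccl21a*, the lymphatic chemokine, had 7.23 (6.36 to 8.24). The member that was lower, *Prox1*, at 0.459 (0.425 to 0.495), is the lymphatic master regulator and is also transcribed in heart muscle. Epicardial and mesothelial markers had a median of 3.51, with 9 of 12 higher. *Upk3b*, a mesothelial uroplakin, went from 5 to 778 counts, at a ratio of 113 (48.1 to 348), and 11.1 over the remote zone. *Wt1*, the epicardial transcription factor, had 84 and 364 counts and a ratio of 3.14 (2.47 to 4.03). *Msln*, mesothelin, was the member that was lower, with 14 and 0 counts. Lung epithelium markers were high in the same infarct library, and their part here was not tested.

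Of 6 adipocyte markers tested, 4 were higher, with a median of 4.77, on small counts. The summed level of the list went the other way, from 529 CPM in the TKO left ventricle to 371 in the TKO scar, since its most abundant member, *Fabp4*, had a ratio of 0.689. With at least 10 counts in each of the 8 libraries the median was 0.689. *Cfd*, adipsin, had 17 and 170 counts, at a ratio of 7.24 (4.39 to 12.7), and *Adipoq*, adiponectin, 6 and 56. In the WT left ventricle *Cfd* had 1144 counts and *Adipoq* 370, so the TKO left ventricle was low in both. Over the TKO remote zone *Cfd* had a ratio of 1.61, and the list median was 1.48.

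Immune genes were the next block. Of 25 macrophage markers, 21 were higher and none lower, with a median of 3.37. *Lyz2*, lysozyme of myeloid cells, had 4038 and 24653 counts, a ratio of 4.42 (4.28 to 4.57). *Lgals3*, galectin-3, and *Gpnmb*, both of lipid-laden and scar macrophages, had ratios of 8.57 (7.26 to 10.2) and 6.33 (5.50 to 7.31). *Folr2* and *Timd4*, which are among the markers of long-lived resident macrophages, were the lowest of the list. Their ratios were 0.771 (0.656 to 0.907) and 0.823 (0.538 to 1.26), and the interval of *Timd4* spans 1. The other 23 macrophage markers tested lay above 1, so resident macrophages as a group were not shown to be lower. *Itgax*, an integrin of dendritic cells and alveolar macrophages, had 11 and 291 counts, at a ratio of 19.2 (10.6 to 38.8), and *Chil3*, abundant in alveolar macrophages, had 10 and 1450, a ratio of 105 (57.0 to 220). Lung epithelium markers were high in the same library, and their part in these immune genes was not tested. All 18 complement genes tested were at least 2-fold higher, with a median of 4.21. *C3* had 2365 and 31732 counts, a ratio of 9.72 (9.32 to 10.1), *C4b* had 17.8 (15.9 to 20.1), which was 6.10 over the remote zone, and *C1qa* was lowest at 2.73 (2.56 to 2.92).

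Lymphocyte genes were led by plasma cells. Of 10 B and plasma cell markers, 9 were higher, with a median of 5.29. *Jchain*, the joining chain of secreted IgA and IgM, had 42 and 4839 counts, a ratio of 83.5 (61.7 to 116). *Igkc*, the kappa light chain, had 141 and 12005, a ratio of 61.7 (52.2 to 73.3), and *Igha*, the IgA heavy chain, 206 and 19991, a ratio of 70.3 (61.3 to 81.0). Over the remote zone these 3 ratios were 26.5, 31.1, and 31.3. In the WT left ventricle *Jchain* had 669 counts, *Igkc* 1745, and *Igha* 500, and the WT ratios were 7.21, 7.18, and 31.3. The list summed to 29.9 CPM in the TKO left ventricle, 42.6 in the TKO remote zone, and 206 in the WT left ventricle. The part of lung tissue in these genes was not tested, with lung epithelium markers high in the same infarct library. *Ighm*, the IgM heavy chain, had a smaller ratio of 9.96 (8.66 to 11.5). T and NK cell markers had a median of 5.15, with 7 of 9 higher, on small counts. The median was 3.21 without a filter, 2.34 with 10 counts in each of the 8 libraries, and 2.11 over the remote zone. *Cd8a*, a T cell coreceptor, had 12 and 95 counts, a ratio of 5.74 (3.14 to 11.5). Genes of MHC class II and dendritic cells had a median of 5.31, with 11 of 14 higher, and *H2-Aa* had 636 and 4852 counts, a ratio of 5.53 (5.09 to 6.01). Neutrophil and mast cell markers had a median of 6.20, with 5 of 7 higher, and *S100a8* went from 12 to 243 counts. The chemokine median was 1.30, with 9 of 24 higher and 1 lower. *Cxcl13*, which attracts B cells, had 4 and 172 counts, a ratio of 31.2 (11.9 to 116) that was 8.05 over the remote zone, while *Cxcl12* had 1.08 (1.04 to 1.13) and *Ccl3* 0.445 (0.374 to 0.528). Among interferon-stimulated genes 7 of 24 were higher and 1 lower, beside 16.2% higher and 7.62% lower among all genes. Lysosomal proteases had a median of 1.42, with 5 of 15 higher, including *Napsa*, which is also a lung marker.

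**Figure D3:**
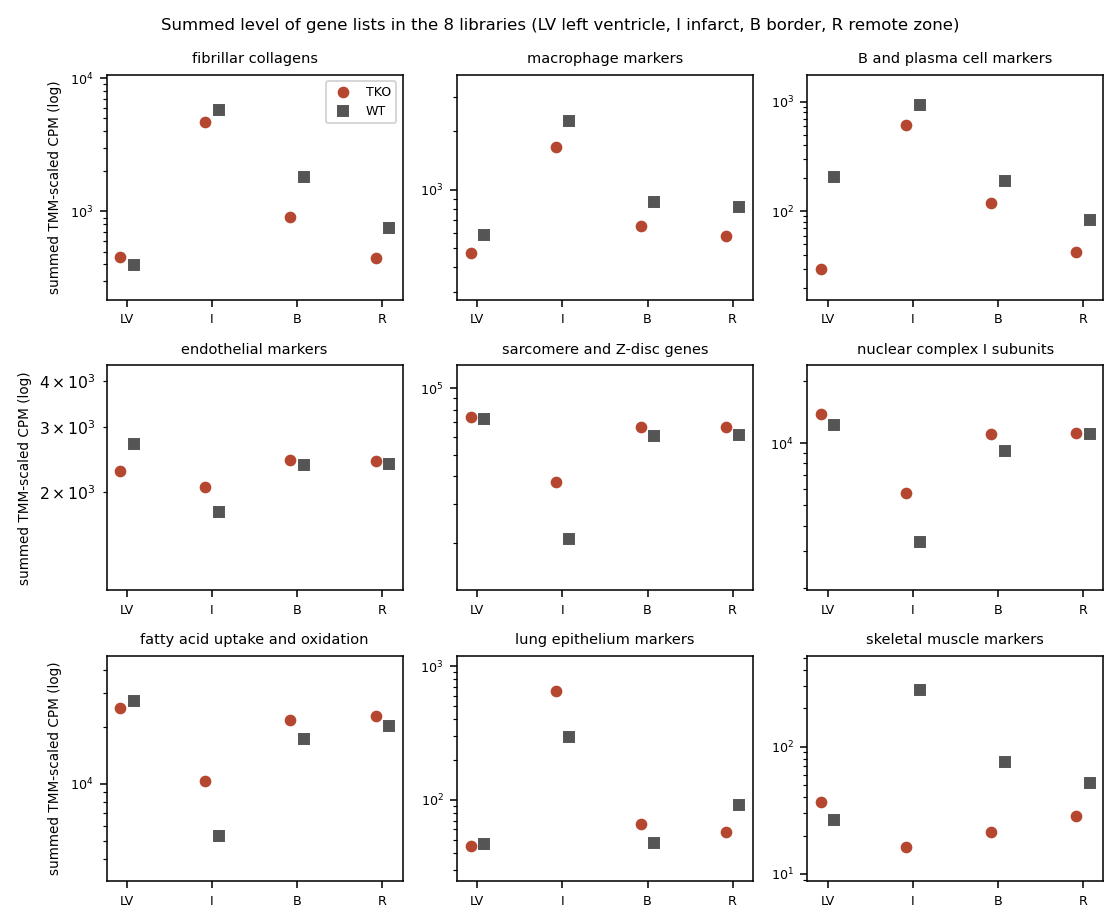
Summed TMM-scaled CPM of 9 gene lists in each library (log axis), with left ventricle (LV), infarct (I), border (B), and remote (R) zones on the x axis, TKO as circles and WT as squares. Fibrillar collagens summed to 454 CPM in the TKO left ventricle and 4705 in the TKO infarct zone, and nuclear complex I subunits to 13815 and 5749 CPM.

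Muscle genes were lower in the TKO infarct zone, most of them by less than 2-fold. Of 38 sarcomere and Z-disc genes, 12 were at least 2-fold lower and 1 was higher, against 7.62% lower among all genes, and the median was 0.528. *Tnni3*, cardiac troponin I, had 109938 and 56143 counts, the lowest ratio of the list at 0.370 (0.366 to 0.374). The ventricular light chains *Myl3* and *Myl2* followed at 0.376 (0.373 to 0.379) and 0.402 (0.399 to 0.405). *Ttn*, titin, had a ratio of 0.580, and *Myh6*, the adult myosin heavy chain, 153941 and 130620 counts and a ratio of 0.615 (0.610 to 0.619). *Myh7*, the fetal heavy chain, was the member that was higher, with 10336 and 42529 counts, a ratio of 2.98 (2.92 to 3.05). *Xirp2*, an actin-binding repair protein, had 1.76 (1.72 to 1.82). The genes of calcium handling had a median of 0.562, with 7 of 16 lower and 1, *Fkbp1b*, higher. *Atp2a2*, the SERCA2a pump, had 286996 and 175358 counts, a ratio of 0.443 (0.440 to 0.445), its inhibitor *Pln* 0.439 (0.435 to 0.442), and *Hrc*, a calcium store protein, 0.346 (0.339 to 0.353).

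Ion channels lay lower than the contractile genes, with a median of 0.471 and 14 of 25 at least 2-fold lower. *Scn4b*, a sodium channel beta subunit, had 2307 and 540 counts, a ratio of 0.170 (0.154 to 0.186), which was 0.340 over the remote zone. *Kcnk3* had 0.363 (0.350 to 0.377) and *Kcnip2*, a subunit of the transient outward potassium current, 0.421 (0.401 to 0.442). At the intercalated disc, where the median was 0.611 and 2 of 15 were lower, *Gja1*, connexin 43 in its protein name, had 10929 and 6295 counts, a ratio of 0.417 (0.404 to 0.430) that was 0.759 over the remote zone. *Ctnnb1*, beta-catenin, had 1.01 (0.981 to 1.03). Cardiac transcription factors had a median of 0.609, with 5 of 18 lower and 1 higher. *Hopx* was lowest at 0.298 (0.288 to 0.309), and *Gata5* highest, from 5 to 81 counts, a ratio of 11.7 that was 2.84 over the remote zone.

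Stress genes did not move together. *Nppa*, atrial natriuretic peptide, had 7244 counts in the TKO left ventricle, 74576 in the TKO infarct zone, with 13881 (border) and 14718 (remote) around it, and its infarct ratio was 7.46 (7.28 to 7.64). *Nppb*, B-type natriuretic peptide, had 10300 and 13552 counts, a ratio of 0.953 (0.929 to 0.978). *Acta1*, skeletal actin, had 0.632 (0.616 to 0.649). Of the 13 wall stress and fetal muscle genes 5 were higher and 2 lower (median 1.34). *Tnni1*, the slow skeletal and fetal troponin I, went from 15 to 158 counts, and *Ankrd1* had a ratio of 1.73 (1.62 to 1.83). Atrial muscle genes had a median of 0.547, with 4 of 12 higher and 5 lower. *Myl7*, the atrial light chain, had 152 counts in the TKO left ventricle and 44 in the TKO infarct zone, a ratio of 0.210 (0.146 to 0.295), but 2031 in the remote zone. *Sln*, sarcolipin, had 49, 10, and 735 counts in the same 3 libraries. Skeletal muscle markers had a median of 1.22, with 2 of 12 higher and 2 lower, beside 16.2% higher and 7.62% lower among all genes. They summed to 37.0 CPM in the TKO left ventricle and 16.2 CPM in the TKO scar. The median was 0.366 with at least 50 counts in the pair and 0.786 over the remote zone, on the other side of 1. In the WT infarct zone the same list summed to 279 CPM, at a median of 37.9 over the WT left ventricle.

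The subunits of the respiratory chain were lower together. All 36 nuclear complex I subunits were at least 2-fold lower in the TKO scar; their median was 0.414, between quartiles of 0.403 and 0.439. Over the TKO remote zone the median was 0.516. Over the same reference the medians of complexes II to IV (0.502), the ATP synthase (0.514), and branched-chain amino acid breakdown (0.550) also lay above 0.5. These were thus less than 2-fold lower, while the medians of fatty acid genes (0.456) and the tricarboxylic acid cycle (0.499) stayed below 0.5. *Ndufs1* had 20252 and 12332 counts, at a ratio of 0.441 (0.431 to 0.451), and *Ndufv1* 0.403 (0.394 to 0.412). *Ndufa9* lay outside this narrow band at 0.150 (0.119 to 0.188), with counts between 0 and 458 over the 8 libraries. Of 28 subunits of complexes II to IV, 24 were lower, with a median of 0.430. *Cox4i1* had 54795 and 29813 counts, a ratio of 0.394 (0.389 to 0.400). Of the 4 subunits within 2-fold, *Cox6a1*, the isoform found outside muscle, was highest at 0.844 (0.798 to 0.892), while its heart isoform *Cox6a2* had 0.385 (0.378 to 0.391). Of 15 ATP synthase subunits 14 were lower, with a median of 0.438. The 13 genes of mitochondrial DNA had a median of 0.517, from 0.431 for *COX2* to 0.646 for *ATP8*, and their share of all counts was 36.6% in the TKO left ventricle and 27.9% in the TKO infarct zone. Mitochondrial ribosomal proteins had a median of 0.532, with 29 of 77 lower. The spread within these lists was small beside that of the matrix lists, where the quartiles of the cartilage genes were 5.28 and 39.1.

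Fuel pathways followed. Of 31 genes of fatty acid uptake and oxidation 26 were lower and none higher, with a median of 0.400. *Fabp3*, the heart fatty acid binding protein, had 89323 and 49348 counts, at a ratio of 0.400 (0.396 to 0.405), and *Hadhb*, of the trifunctional protein, 0.377 (0.372 to 0.382). *Cpt1a*, the liver isoform of the carnitine transferase, had 1380 and 1911 counts, with an interval of 0.936 to 1.08. *Pdk4*, the kinase that blocks pyruvate oxidation, was lowest at 0.174 (0.166 to 0.181), with 10880 and 2608 counts, and 0.453 over the remote zone. Of 23 genes of the tricarboxylic acid cycle and pyruvate dehydrogenase 21 were lower, with a median of 0.448 and a range of 0.389 to 0.563. Branched-chain amino acid breakdown had a median of 0.482, with 9 of 17 lower. Its cytosolic transaminase *Bcat1*, which leukocytes use, went from 9 to 119 counts, a ratio of 9.58 (4.88 to 21.5), or 2.51 over the remote zone. Ketone use, with 5 genes, had a median of 0.501, and *Oxct1*, the rate-limiting enzyme of ketone oxidation, had 37125 and 25676 counts, a ratio of 0.501 (0.493 to 0.509).

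Glycolysis was divided by isoform. The median of 27 genes was 0.647, with 5 lower and 4 higher, beside 7.62% lower and 16.2% higher among all genes. The muscle isoforms *Eno3* and *Pgam2* had ratios of 0.354 (0.347 to 0.360) and 0.385 (0.375 to 0.395). *Ldhb*, the heart form of lactate dehydrogenase, had 0.366 (0.360 to 0.372). The broadly used isoforms *Eno1* and *Pgam1* had 1.02 (0.980 to 1.06) and 0.995. Of the 4 genes that were higher, *Slc16a3*, a lactate exporter, had 4.71 (3.55 to 6.36) and *Hk3*, the leukocyte hexokinase, 3.86 (2.73 to 5.59). The others were *Pfkfb3*, which makes the metabolite that TIGAR removes, at 3.64 (3.09 to 4.32), and *Eno2* at 2.19. Which cells carried these transcripts was not tested. *Ckm*, muscle creatine kinase, had 41162 and 18932 counts, a ratio of 0.333 (0.328 to 0.339), the lowest of 13 creatine and phosphate shuttle genes, whose median was 0.624 with 6 lower. Of 16 metabolic regulators 4 were lower, with a median of 0.669. *Ppargc1a*, PGC-1alpha, had 2585 and 2189 counts, a ratio of 0.613 (0.579 to 0.650), *Esrra* 0.471 (0.451 to 0.492), and *Perm1* 0.469 (0.453 to 0.486). Mitochondrial dynamics and mitophagy genes had a median of 0.635, with 4 of 17 lower, among them *Pink1* at 0.462 (0.452 to 0.473) and *Mfn2* at 0.475 (0.465 to 0.485). *Bnip3l*, a mitophagy receptor, had 0.999 (0.942 to 1.06).

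**Figure D4:**
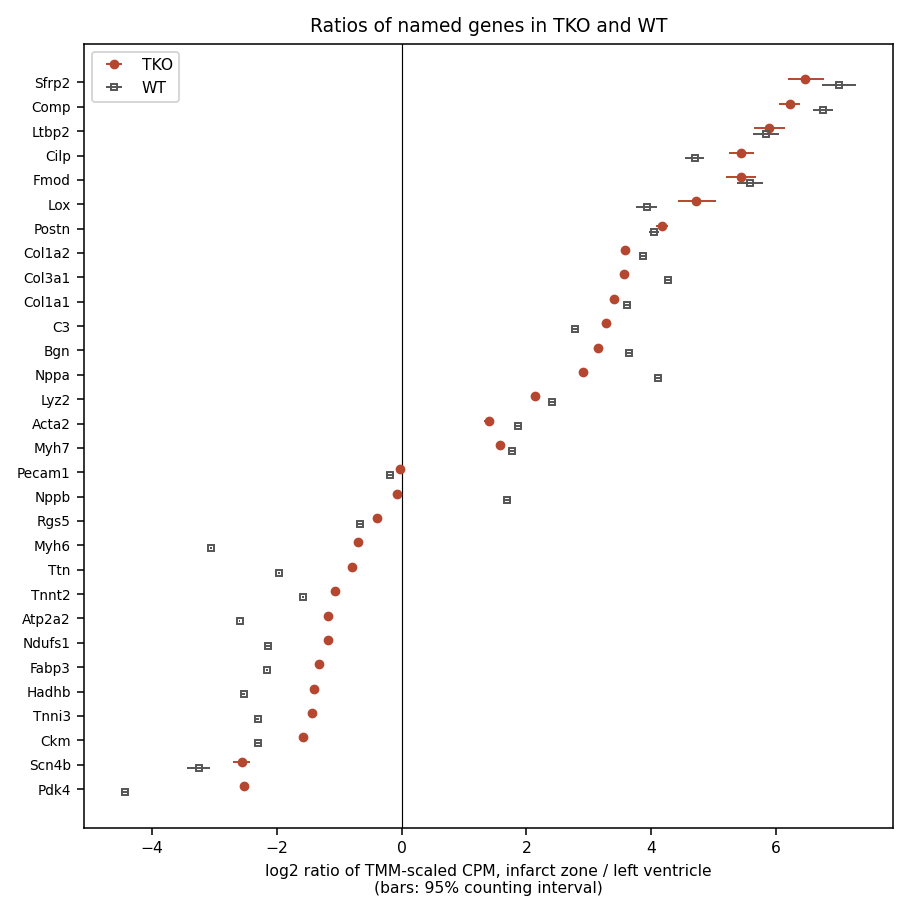
Log2 ratio of TMM-scaled CPM, infarct zone over left ventricle, for 30 genes in TKO (red circles) and WT (grey squares), with 95% counting intervals as bars. The muscle and energy genes from *Myh6* down lie left of 0 in both genotypes, farther in WT, and *Nppb* lies near 0 in TKO (0.953-fold) and right of 0 in WT (3.21-fold).

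The remaining lists are to be read beside 16.2% higher and 7.62% lower among all genes. Of 28 cell cycle genes 11 were higher and 2 lower (median 1.94). *Mki67* had 88 and 503 counts, a ratio of 4.14 (3.30 to 5.25), while *Cenpf* had 877 and 492. Immediate early genes had a median of 1.68, with 6 of 14 higher. Secretory pathway genes had a median of 1.08, with 2 of 21 higher and 1 lower, and cytosolic ribosomal proteins 0.910, with 1 of 84 higher and 3 lower; under total counts the ribosomal median lay above 1. *Rps7* was the ribosomal gene that was higher, with 754 counts in the TKO left ventricle and 5704 to 10221 in the other 7 libraries, while its processed copy *Rps7-ps3* had 2011 counts there and at most 10 elsewhere. Receptors of adrenergic, angiotensin, and natriuretic signals had a median of 0.994, with 2 of 13 higher and 3 lower, where *Ace* reached 4.97 (4.67 to 5.29), or 2.79 over the remote zone, and *Adra1b* had 0.319 (0.283 to 0.358). Schwann and nerve markers had a median of 0.826, with 1 of 7 higher and 2 lower, and 1.43 with at least 10 counts in each of the 8 libraries. Red blood cell genes had a median of 1.89, with *Hbb-bs* at 1.87 (1.84 to 1.89). Clock genes had a median of 1.56, with 6 of 16 higher and 2 lower, and 0.970 over the remote zone.

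Ranked by the end of the interval nearest to 1, the 15 highest genes were *Fat1*, *Sftpc*, *Slc34a2*, *Sftpa1*, *Angptl7*, *Scgb1a1*, *Sfrp2*, *Itpr1*, *Comp*, *Jchain*, *Igha*, *Sftpd*, *Igkv16-104*, *Chil3*, and *Cldn18*. Of these, 5 had a TKO left ventricle count at or under the floor. *Fat1*, a protocadherin, had 694 counts in the TKO infarct zone, 843 in its WT counterpart, 33 in the WT remote zone, and 0 in the other 5 libraries. *Itpr1*, a calcium release channel, had 0 counts in the TKO left ventricle but 266 to 524 in the other 7, so its ratio rests on that library, and over the remote zone it was 0.842. At the low end, 12 of the 15 genes had 3 counts or fewer in the infarct zone and 7 were not protein-coding genes of the annotation, 6 of them pseudogenes. *Gm8210* and *Gm13841*, which are processed pseudogenes, had the same 8 counts as each other, 594 in the TKO left ventricle and 3 in the TKO infarct zone. Counts of such near-identical copies depend on how Kallisto shares reads among them and are uncertain. The other low genes were *Rps3a2*, *Gm7666*, *Rpl34-ps1*, *Rps7-ps3*, *Gm10184*, *Rnaset2b*, *Sorbs3*, *Adam9*, *Ndst2*, *Cramp1*, *Krt4*, *Retnla*, and ENSMUSG00000083840.

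Protein-coding genes that reached 10 counts in all 8 libraries, a filter chosen after the values were seen, numbered 12374. Their 15 highest were still led by *Sftpc*, the lung surfactant gene, and still held *Jchain* of plasma cells beside matrix genes named above. Not named above were the protease inhibitor *Slpi* at 76.5 (45.4 to 140) and the tumour suppressor candidate *Ecrg4* at 66.2 (42.3 to 110). The acute-phase genes *Saa3* and *Hp* had 57.2 (34.6 to 103) and 45.6 (30.6 to 71.5). *Chil1* had 44.4 (29.5 to 70.3) and *Col8a2* 41.3 (30.0 to 58.5). Over the remote zone *Hp* had a ratio of 9.72 and *Ecrg4* 15.7. Among their 15 lowest, *Epha4*, an ephrin receptor, had 919 counts in the TKO left ventricle and 38 in the TKO infarct zone, a ratio of 0.0300 (0.0211 to 0.0414), with 718 and 807 in the border and remote zones. *Epha4* was 0.0397 over the remote zone, and in WT it had a ratio of 0.0306. *Ucp3*, the mitochondrial uncoupling protein of muscle, had 1905 and 517 counts, a ratio of 0.197 (0.178 to 0.217). *Drd2*, a dopamine receptor, had 226 and 38. *Slc38a6* and *Slc41a3*, solute carriers, had ratios of 0.193 and 0.192 that became 0.793 and 0.674 over the remote zone, since the TKO left ventricle held over 2 times the count of every other library in each.

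In the other zones of the same TKO hearts the differences from the left ventricle were smaller. In the border zone 569 genes (4.38%) were at least 2-fold higher and 219 (1.68%) lower than in the TKO left ventricle; the remote zone held 398 (3.06%) and 197 (1.52%). These comparisons share the TKO left ventricle library with that of the infarct zone. Fibrillar collagens had medians of 11.2 (infarct), 2.11 (border), and 1.10 (remote), and 7 of 8 members were ordered infarct over border over remote. For macrophage markers the medians were 3.37, 1.33, and 1.25. For sarcomere genes they were 0.528, 0.887, and 0.953, for fatty acid genes 0.400, 0.839, and 0.888, and for complex I subunits 0.414, 0.804, and 0.807. The Wnt genes were ordered otherwise, with medians of 1.05 (border) and 1.25 (remote).

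The WT infarct zone over the WT left ventricle shares no library with the TKO comparison. There 2446 genes (18.8%) were at least 2-fold higher and 1927 (14.8%) at least 2-fold lower. Of the genes higher in TKO, 1693 were also higher in WT, which is 80.2% of the TKO list and 69.2% of the WT list. Of the genes lower, 810 were shared, 81.7% of the TKO list and 42.0% of the WT list. Across the 12999 genes, which are not independent, Pearson's r of the log2 ratios was 0.78, and the genes share the depth and scaling of the same 4 libraries. Medians in WT were 13.4 for fibrillar collagens, 18.3 for cartilage genes, and 4.44 for macrophage markers. They were 0.306 for sarcomere genes, 0.278 for complex I, 0.189 for fatty acid genes, and 0.246 for the tricarboxylic acid cycle. All 36 complex I subunits, all 31 fatty acid genes, and 35 of 38 sarcomere genes had a higher ratio in TKO than in WT, and 19 of 23 matricellular genes had a lower one. With 1 library of each kind, whether the genotypes differ in these ratios cannot be tested, and the share of scar in the tissue taken cannot be told apart from the genotype.

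Promoter sequences are given for 4 genes, *Col3a1*, *Myh7*, *Atp5g3*, and *Perm1*, chosen among genes whose windows hold the motif marked. They are examples and do not represent their gene groups. Windows of 250 bases before each gene start were taken from RefSeq sequences of GRCm38.p6, and 10092 of the genes tested had at least 1 of 12928 windows. CATTCC, the core letters bound by TEAD factors, was searched on both strands and occurred in 12.9% of 675 windows of genes at least 4-fold higher, in 13.0% of 913 windows of genes at least 2-fold lower, and in 10.8% of all windows. AAGGTCA, the half-site of ERR and related nuclear receptors, occurred in 3.11%, 5.04%, and 2.82%. TGAGTCA, the AP-1 site, occurred in 5.04%, 3.61%, and 3.30%. For the members of 5 energy lists (119 windows) the share with AAGGTCA was 5.88%, and for 7 matrix lists (104 windows) it was 6.73%, so this motif did not separate the groups. The sequences follow 5′ to 3′ on the strand of the gene, with the motif in capitals on the strand where it reads forward or in its complement.
Col3a1 (chr1:45311288-45311537, strand +, collagen, CATTCC): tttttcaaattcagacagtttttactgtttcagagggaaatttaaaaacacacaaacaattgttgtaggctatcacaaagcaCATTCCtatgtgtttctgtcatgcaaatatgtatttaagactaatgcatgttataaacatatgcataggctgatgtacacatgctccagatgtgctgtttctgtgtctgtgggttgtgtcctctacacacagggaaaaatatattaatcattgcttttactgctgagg
Myh7 (chr14:54994627-54994876, strand -, fetal myosin, CATTCC read as GGAATG): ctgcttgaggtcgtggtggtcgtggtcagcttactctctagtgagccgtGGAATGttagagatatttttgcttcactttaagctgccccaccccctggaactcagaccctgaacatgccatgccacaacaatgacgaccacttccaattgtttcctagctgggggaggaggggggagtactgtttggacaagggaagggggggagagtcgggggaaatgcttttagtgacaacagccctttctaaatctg
Atp5g3 (chr2:73911327-73911576, strand -, ATP synthase, AAGGTCA read as TGACCTT): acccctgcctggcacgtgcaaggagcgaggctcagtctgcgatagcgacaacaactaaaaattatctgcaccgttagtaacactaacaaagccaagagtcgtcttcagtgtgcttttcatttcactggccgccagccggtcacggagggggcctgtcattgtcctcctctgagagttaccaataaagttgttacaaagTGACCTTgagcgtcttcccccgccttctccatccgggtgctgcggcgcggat
Perm1 (chr4:156215677-156215926, strand +, muscle regulator of ERR targets, AAGGTCA read as TGACCTT): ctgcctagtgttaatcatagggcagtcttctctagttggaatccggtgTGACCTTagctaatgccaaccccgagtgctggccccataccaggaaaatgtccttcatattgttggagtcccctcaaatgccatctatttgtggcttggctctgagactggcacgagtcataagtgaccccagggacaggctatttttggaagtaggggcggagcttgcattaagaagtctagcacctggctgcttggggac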

How the data were processed

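The authors trimmed reads with Trim Galore 0.6.5, estimated transcript abundance with Kallisto 0.46 against the mm10 (GRCm38) transcriptome and summarized it per gene by tximport; what they deposited is estimated counts as whole numbers, not normalized, for 16994 genes in 8 libraries, 1 per group. All columns were mapped to samples. Total counts were 27429240 to 33799249. TMM factors came from edgeR 4.0.16 (R 4.3.3), and the alternative size factors from DESeq2 1.42.0. The 12999 genes that averaged 1 CPM or more were kept. Ratios of named genes are plain ratios of TMM-scaled CPM with exact 95% Clopper-Pearson intervals, and genes past 2-fold and list medians used a prior count of 2. No molecular identifiers were used, so reads are not independent and intervals cover counting error only. Against a library at 3 counts or fewer, bounds used 3 counts. Without replicates no test between conditions was run. The scripts were tested on simulated data. The alternatives were total counts, other size factors, TMM from the 2 libraries, totals without mitochondrial genes, other filters, and prior counts of 0.5 and 10. The remote zone as reference, a minimum of 10 counts in each of the 8 libraries, and the lung, squamous, and glucocorticoid and fasting lists were added after seeing the data.

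Genes were named by a rule: *Tigar*; the 15 highest and 15 lowest by the interval end nearer to 1; and of each list the 4 members with most counts and the highest and lowest ratio among those with at least 50 counts in the pair. Other members were named after their values were seen. The gene lists and members were chosen with earlier results of these data known. Some genes and a list covered by the rule are not reported here. Positions came from GENCODE M21 (GRCm38), where 12945 of the genes tested were found.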

Additional observations from a re-analysis of the deposited data

Results flagged for a closer look

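Of 12675 genes with at least 10 counts in each of the 4 libraries concerned, 19 differed by at least 2-fold in opposite directions between infarct zone and left ventricle in the 2 genotypes. Each value rests on 1 library a side, the values use a prior count of 2, and the difference between genotypes was not tested.

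Of these, 9 were lower in the TKO infarct zone and higher in the WT infarct zone. The TKO and WT ratios were 0.176 and 6.01 for *Sln*, 0.218 and 2.89 for *Myl7*, 0.432 and 3.85 for *Myl4*, 0.479 and 6.69 for *Mybphl*, and 0.300 and 10.3 for *Pvalb*. *Arhgap39* had 0.227 and 2.49, *Commd1b* 0.372 and 2.32, and the unnamed genes ENSMUSG00000096262 and ENSMUSG00000083840 had 0.418 and 2.58, and 0.00106 and 3.25. ENSMUSG00000083840 had 15947 counts in the TKO left ventricle and 5 to 186 in every other library, so its TKO ratio rests on that library. *Sln*, *Myl7*, *Myl4*, and *Mybphl* are genes of atrial muscle, and *Myl7* was highest in the remote zones of both genotypes, with 2031 counts in TKO and 5227 in WT. Other members of the atrial list were higher in both genotypes, such as *Nppa* at 7.46 in TKO and 17.3 in WT, and so was *Tnnt3* of fast skeletal muscle, at 3.29 and 45.8.

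The other 10 were higher in the TKO infarct zone and lower in the WT infarct zone. *Car3* had 7.74 and 0.316, *Cfd* 6.68 and 0.226, *Cyp2e1* 5.37 and 0.195, and *Pcx*, pyruvate carboxylase, 2.83 and 0.217. *Zbtb16* had 4.28 and 0.339, *Fam107a* 3.71 and 0.482, and *Depp1* 2.51 and 0.296. The remaining genes were *Gm4956* at 3.78 and 0.253, *Ahrr* at 2.24 and 0.457, and *Prkaa1* at 2.16 and 0.439. In *Car3*, *Cfd*, *Cyp2e1*, *Zbtb16*, *Fam107a*, *Depp1*, *Gm4956*, and *Ahrr* the TKO left ventricle had the lowest count of the 8 libraries, so these TKO ratios rest on that library. In *Pcx* (45 counts) and *Prkaa1* (120 counts) it shared the lowest count with the TKO and WT remote zones, among others for *Prkaa1*. Other counts of these 2 genes also recurred between libraries, 135 for *Pcx* and 240 for *Prkaa1*, so their estimated counts are uncertain. The cause of the repeats was not tested. The WT left ventricle had the highest count of the 8 libraries in *Car3*, *Cfd*, *Cyp2e1*, *Zbtb16*, *Depp1*, and *Pcx*, so these WT ratios rest on it. Of glucocorticoid targets, *Fkbp5* had 10.1 in TKO and 1.27 in WT, and *Per1* 4.37 and 1.42, both within 2-fold in WT. A list of 15 genes that respond to glucocorticoids or fasting, made after the values were seen, had a WT median of 0.620. In WT 1 of them was at least 2-fold higher and 6 were lower, and in TKO 8 were higher and 2 lower.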

How the results depend on the processing

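With total counts in place of TMM, 3879 genes were at least 2-fold higher and 207 lower, and no list had a median under 0.5 (0, against 7 of 56 with TMM). Without a filter on low counts 3750 genes were higher. With the TKO remote zone as the reference, chosen after seeing the data, 535 genes were lower and 4 lists had a median under 0.5; among called values, *Itpr1* became 0.843 and *Dbp* 0.995. Requiring 10 counts in each of the 8 libraries, also chosen after seeing the data, turned the adipocyte median from 4.77 to 0.689, since its low-count members drop out. The cause of the other changes was not tested. DESeq2 size factors, TMM from the 2 libraries only, leaving out mitochondrial genes, at least 50 counts in the pair, and prior counts of 0.5 and 10 left both gene counts within 1.5 times (1974 to 2276 higher, 941 to 1022 lower). No paired analysis was possible because each group has 1 library. Depth limits genes near 3 counts in a library.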

Other observations

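Genes that respond to glucocorticoids or fasting, a list of 15 made after the values were seen, had a median of 2.13 in the TKO infarct zone over the TKO left ventricle, with 8 higher and 2 lower, and 0.620 in WT. *Fkbp5*, a glucocorticoid receptor target, had 232 counts in the TKO left ventricle and 3250 in the TKO infarct zone, a ratio of 10.1 (8.88 to 11.6), and 2.41 over the TKO remote zone. *Tsc22d3*, another target, had 1272 and 8868 counts, at a ratio of 5.05 (4.76 to 5.36), and 2.08 over the remote zone. Over the remote zone the list had a median of 1.02.

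*Angptl4*, which inhibits lipoprotein lipase, had 464 and 143 counts, a ratio of 0.223 (0.184 to 0.270), but 1.51 over the remote zone. Of 8 squamous epithelium markers listed after the values were seen, 3 were tested, and they summed to 20.1 CPM in the TKO left ventricle, 15.1 in the TKO remote zone, and 1.5 in the TKO infarct zone.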
